A study of Homo sapiens with 6 samples.

Results

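The 10 genes described here are IL6, CXCL8, CXCL1, CXCL2, CXCL3, IL1A, IL1B, CCL2, CCL20 and LIF, which encode secreted inflammatory cytokines and chemokines. They were taken as a list of gene symbols, chosen with earlier results of these data known. The symbols were matched to the Ensembl identifiers of the count table, and all 10 were found among its 63677 identifiers. RNA was measured in UWB1.289 cells, a human ovarian carcinoma line deficient in BRCA1, whose genotype the sample labels give as WT. Cells received 4 µM Olaparib, an inhibitor of the DNA repair enzyme PARP1, for 24 h (3 samples) or the solvent DMSO for the same time (3 samples). The sample labels and the paper give the dose as 4 µM, and the design text of the series gives it as 10 µM. All samples came from this single cell line, grown in the same serum-containing medium. In bulk RNA, fewer cells that express a gene and less of its RNA per cell cannot be told apart.

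The cytokines fall into a few families with known roles. IL6 and LIF signal through the shared receptor chain gp130 (encoded by IL6ST) to STAT3. CXCL8 (interleukin 8), CXCL1, CXCL2 and CXCL3 are chemokines that attract neutrophils through the receptors CXCR1 and CXCR2. CCL2 attracts monocytes through CCR2, and CCL20 attracts CCR6-bearing lymphocytes and dendritic cells. IL1A and IL1B act on the receptor IL1R1. In many epithelial cells NF-kB, AP-1 and C/EBP factors drive these genes, and their short-lived mRNAs are removed by decay proteins such as ZFP36. Release of such cytokines by damaged or senescent cells is a well-known response to DNA damage.

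The 6 libraries held between 35360458 and 39640775 counts. The markers of the line were present, with the 10 epithelial and Mullerian markers adding up to between 480422 and 512307 normalized counts per sample, although WT1 had at most 2 counts in any sample. PAX8 among them was called higher after Olaparib (log2 fold change 0.10, edgeR adjusted p = 0.0399). Normalized counts are counts scaled by edgeR's TMM method to a common library size. Of 10 leukocyte markers, 1 was at 0 in every sample (NKG7) and 7 were tested, and none of these 7 passed the threshold in either direction. The sum over the 10 lay between 139 and 165 normalized counts with Olaparib and between 117 and 145 after DMSO. The 6 fibroblast markers added up to between 239 and 345 after Olaparib and between 279 and 317 after DMSO. The 4 endothelial markers added up to between 1659 and 1804 in all samples, mostly from CDH5, and VWF among them was higher after Olaparib (log2 fold change 0.68, edgeR adjusted p = 0.0106). Whether the markers that differed have a part in the cytokine values was not tested.

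The sequences just upstream of IL6 and the neutrophil chemokines are shown first, because NF-kB sites in these stretches are a classical feature of the genes. Each is the 140 bases before the RefSeq start (GRCh38.p14), 5′ to 3′ on the strand of the gene. Capitals mark matches to the NF-kB consensus and to the 9 bases GGAATTTCC. IL6 lies on chromosome 7 (chr7:22727060-22727199, plus strand). The chemokine stretches lie on chromosome 4, at chr4:73740429-73740568 for CXCL8 and chr4:73869253-73869392 for CXCL1 (plus strand), and at chr4:74099196-74099335 for CXCL2 and chr4:74038690-74038829 for CXCL3 (minus strand). The GENCODE models of IL6, CXCL8 and CXCL3 begin further upstream than this RefSeq start.
IL6: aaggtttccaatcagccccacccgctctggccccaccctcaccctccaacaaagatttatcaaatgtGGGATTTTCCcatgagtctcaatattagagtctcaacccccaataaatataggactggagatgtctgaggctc
CXCL8: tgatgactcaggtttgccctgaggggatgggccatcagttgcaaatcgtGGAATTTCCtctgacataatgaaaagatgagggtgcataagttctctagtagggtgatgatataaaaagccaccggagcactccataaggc
CXCL1: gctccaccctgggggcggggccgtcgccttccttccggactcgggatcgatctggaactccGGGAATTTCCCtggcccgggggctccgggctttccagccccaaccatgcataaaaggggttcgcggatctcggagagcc
CXCL2: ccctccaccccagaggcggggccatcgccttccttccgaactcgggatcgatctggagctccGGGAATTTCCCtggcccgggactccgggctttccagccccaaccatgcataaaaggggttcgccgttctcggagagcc
CXCL3: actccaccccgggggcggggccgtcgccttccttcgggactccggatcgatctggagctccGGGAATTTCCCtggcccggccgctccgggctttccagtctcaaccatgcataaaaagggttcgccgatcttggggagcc

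The stretches of CXCL1, CXCL2 and CXCL3 were nearly the same. In global alignments they shared 91.5% of positions between CXCL1 and CXCL2, 90.7% between CXCL1 and CXCL3 and 87.9% between CXCL2 and CXCL3. CXCL8 shared 45.8% to 47.4% with them, and IL6 51.0% to 53.2%. The NF-kB consensus and the motifs named after it were searched on both strands of windows from 250 bases before to 50 bases after each RefSeq start, for which 8 of the 10 genes (all except CCL2 and LIF) had an entry. Of these 8 genes, 5 held a match, namely IL6, CXCL1, CXCL2, CXCL3 and CCL20, against 5.91% of all 35116 windows of this length. The first base of the IL6 match lay 73 bases upstream of the start, and those of CXCL1, CXCL2 and CXCL3 lay 79, 78 and 79 bases upstream. The CXCL8 window held no match to the full consensus. It held GGAATTTCC, 91 bases upstream, which is also the core of the matches in CXCL1, CXCL2 and CXCL3 and occurs in 0.461% of all windows. This core overlaps the consensus and was searched after the sequences had been seen. The AP-1 motif TGANTCA was found 137 bases upstream of CXCL8 and in IL1A, and in 7.71% of all windows. The C/EBP motif TTNCNNAA was found in 4 of the 8 genes (IL6, CXCL2, IL1A and IL1B) and in 36.8% of all windows. TATAAA was found in CXCL8, IL1A and CCL20 and in 11.5% of all windows. It lay 31 bases upstream of CXCL8, 29 of CCL20 and 239 of a single IL1A start. The 8 genes had 9 windows, because IL1A had more than a single RefSeq start. These matches describe the letters of the windows and do not show binding.

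In DMSO-treated cells the transcripts differed widely in level. Levels normalized for length as TPM, in which counts are divided by the summed exon length of the gene and by depth, put CXCL8 first and IL6 last. CXCL8 had 374 ± 9.99 TPM (SD, n = 3), CXCL1 162 ± 7.07, IL1A 65.2 ± 2.78 and LIF 53.8 ± 0.733. CCL2 had 7.13 ± 0.476 TPM and IL1B 4.61 ± 0.0929. The remaining levels in DMSO were lower still, with 2.75 ± 0.334 TPM for CXCL2, 2.44 ± 0.136 for CXCL3, 1.91 to 2.14 for the samples of CCL20 and 1.90 ± 0.130 for IL6. So the line expressed CXCL8, CXCL1, IL1A and LIF at high levels without the drug and the other members at low levels. In this order the DMSO samples of neighbouring genes did not overlap, except between CXCL2 and CXCL3 and between CCL20 and IL6. The ranks other than those of CXCL8, CXCL1 and CXCL3 changed when counts were not divided by length. The choice of length changed only the ranks of IL6 and CXCL2. By CPM, which are not divided by length, LIF was 3rd and IL1A 4th, IL1B 5th and CCL2 6th, IL6 7th, CXCL2 9th and CCL20 last. With the length of the Ensembl canonical transcript, an alternative chosen after seeing the data, IL6 had 4.27 ± 0.301 TPM and was 7th, and CXCL2 was last.

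**Figure D1:**
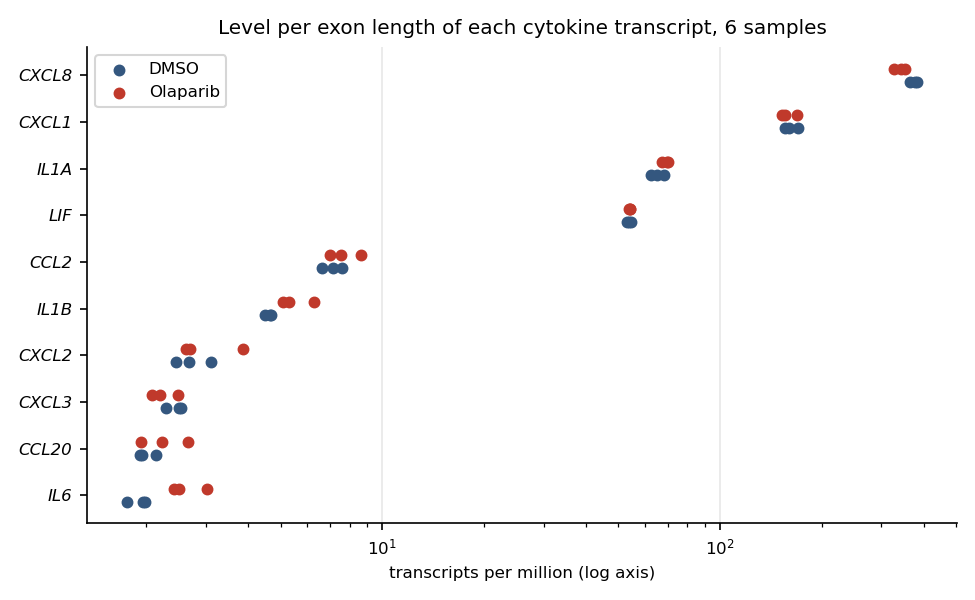
Level of each cytokine transcript in TPM (log axis, exon-length based) in the 3 DMSO samples (blue) and the 3 Olaparib samples (red). CXCL8, CXCL1, IL1A and LIF lie above 50 TPM in every sample, and the other 6 genes lie below 10 TPM.

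Olaparib was then compared with DMSO to ask how the cytokine transcripts responded to PARP inhibition. IL6 was higher and CXCL8 was lower after Olaparib, and the other 8 genes did not pass an adjusted p of 0.05. The rise of IL6 was 1.40-fold, and the fall of CXCL8 was to 0.915 of the DMSO level. With edgeR's quasi-likelihood F test and p-values adjusted after Benjamini and Hochberg over all 21729 genes tested, 2 of 10 members were called, 1 higher and 1 lower. Over all genes tested 3.36% were called, 2.15% higher and 1.21% lower. At an unadjusted p under 0.05 the members numbered 3 of 10, against 14.8% of all genes tested. The median log2 fold change of the members was 0.107, with 7 above 0 and 3 below, against -0.00422 over all genes tested. Without Olaparib replicate 1 the median of the members was 0.0289. The Olaparib and DMSO samples did not overlap in 5 members, 4 higher (IL6, IL1A, IL1B and LIF) and 1 lower (CXCL8), where 19.3% of all genes tested did not overlap, 10% higher and 9.29% lower. With 3 samples in each group, the smallest two-sided p of the exact permutation test is 0.1. Groups that do not overlap always reach it, so it adds no test for these 5 genes. The members were chosen with earlier results of these data known, so their shares and median beside those of all genes are a description.

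**Figure D2:**
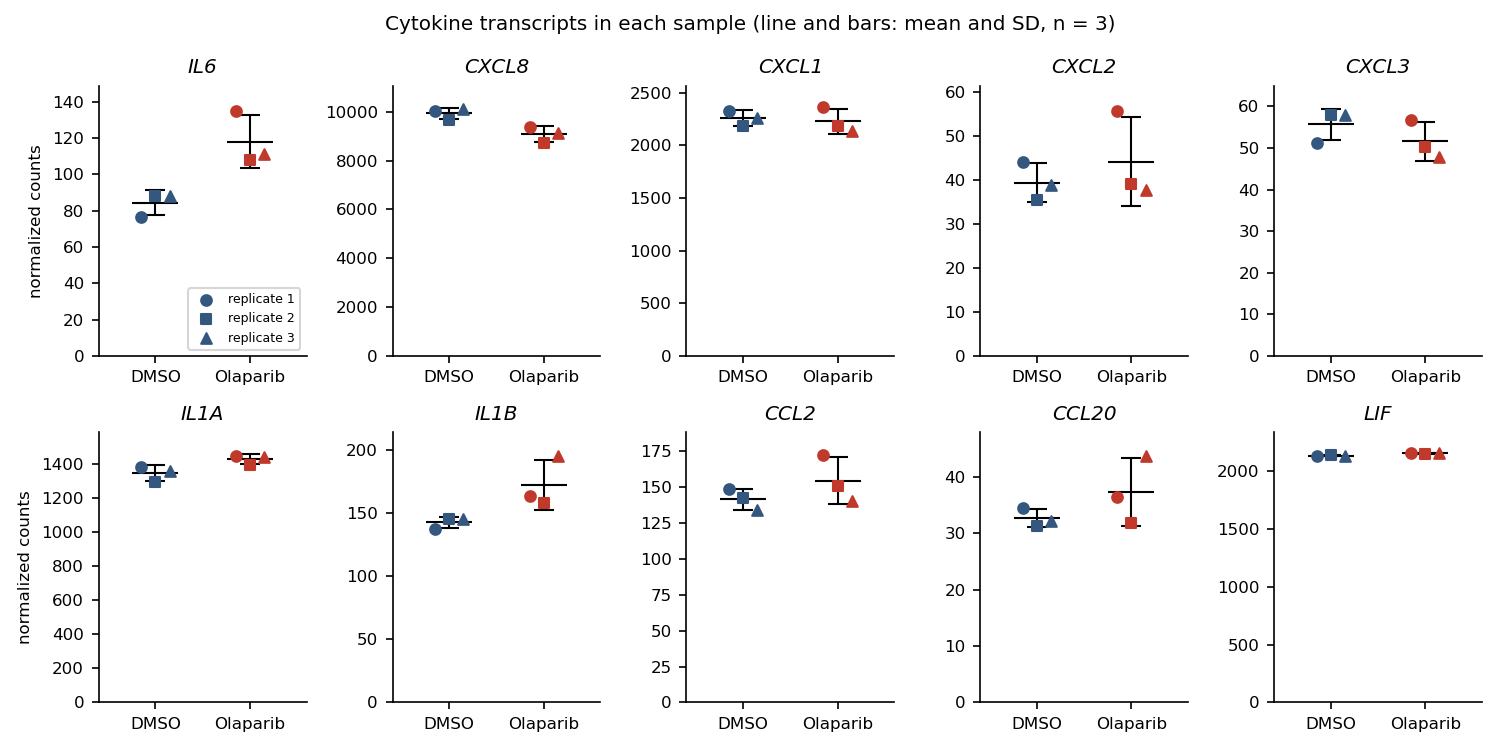
Normalized counts of the 10 cytokine transcripts in each sample, with DMSO in blue and Olaparib in red, replicates by marker shape, and mean and SD (n = 3) in black. Every axis starts at 0. The Olaparib samples lie above the DMSO samples in IL6 and IL1B and below them in CXCL8, and the groups overlap in CXCL1, CXCL2, CXCL3, CCL2 and CCL20.

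IL6 (ENSG00000136244, chromosome 7, 22725884 to 22732002 on GRCh38), the pleiotropic cytokine that drives STAT3 signaling, had 135, 108 and 111 normalized counts after Olaparib. After DMSO it had 76.3, 88.3 and 88.2. The lowest Olaparib sample was above the highest DMSO sample, and Olaparib replicate 1 stood above the other two. The means were 118 ± 14.6 and 84.2 ± 6.86 (SD, n = 3 each), giving a log2 difference of 0.48 (SE 0.128, edgeR adjusted p = 0.0268). The rise was larger than the spread between replicates, but its call depended on the test and on single samples. DESeq2's Wald test gave a log2 fold change of 0.48 with an adjusted p of 0.107. The edgeR adjusted p was 0.144 without Olaparib replicate 1, 0.109 without DMSO replicate 1, 0.0660 without DMSO replicate 2 and 0.0656 without DMSO replicate 3. The log2 fold change stayed between 0.38 and 0.54 when each sample was left out in turn. Of the summed IL6 exons, 9.91% overlap exons of IL6-AS1 and STEAP1B on the opposite strand, and the strand setting of the counting is not given. Those genes held 13 to 25 and 10 to 23 counts per sample, with log2 fold changes of 0.06 (adjusted p = 0.955) and 0.32 (adjusted p = 0.673) in edgeR.

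LIF (ENSG00000128342, chromosome 22, 30240453 to 30246759), the other gp130 cytokine of the list, had 2155, 2147 and 2158 normalized counts after Olaparib. After DMSO it had 2129.9, 2139 and 2133. The samples of each group lay within a few counts of each other, and the groups did not overlap. The difference was nevertheless very small, with a log2 change of 0.01 (95% confidence interval -0.07 to 0.09, edgeR adjusted p = 0.928). The coefficient of variation between replicates was 0.27% after Olaparib and 0.21% after DMSO. LIF-AS1 and LIF-AS2 overlap 4.37% of the LIF exons, with at most 10 counts each in any sample.

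CXCL8 (ENSG00000169429, chromosome 4, 73740519 to 73743716), the most abundant of the cytokine transcripts, had 9383, 8737 and 9148 normalized counts after Olaparib. After DMSO it had 10018, 9682 and 10116. All Olaparib samples were below all DMSO samples. The mean fell from 9939 ± 227 to 9089.6 ± 327, giving a log2 difference of -0.13 (SE 0.031, edgeR adjusted p = 0.0111). The DESeq2 value was the same to this precision (adjusted p = 0.0054). The change was small and did not reach a fold threshold of 1.2, which IL6 passed. Of all genes tested, 0.723% passed both this threshold and an edgeR adjusted p of 0.05 upward, and 0.483% downward. Without Olaparib replicate 2 the log2 fold change was -0.10 (edgeR adjusted p = 0.0983), and without DMSO replicate 3 it was -0.12 (adjusted p = 0.0888).

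CXCL1 (ENSG00000163739) had 2360.3, 2186 and 2137 normalized counts with Olaparib and 2329, 2179 and 2262 after DMSO. The groups overlapped, with a log2 change of -0.02 (95% confidence interval -0.11 to 0.07, unadjusted p = 0.672 in edgeR). CXCL2 (ENSG00000081041) had 55.7, 39.0 and 37.8 normalized counts with Olaparib and 43.9, 35.3 and 38.9 after DMSO. Olaparib replicate 1 was the highest of the 6, and without it the log2 fold change went from 0.17 to -0.03 (adjusted p = 0.762 and 0.966 in edgeR). CXCL3 (ENSG00000163734) had 56.7, 50.3 and 47.7 normalized counts with Olaparib and 51.2, 57.9 and 57.8 after DMSO, and the groups overlapped. Its log2 fold change was -0.11 (95% confidence interval -0.44 to 0.22, edgeR adjusted p = 0.820), and with single samples left out it lay between -0.1842 (without Olaparib replicate 1) and -0.0608 (without Olaparib replicate 3). For CXCL2 the interval was -0.23 to 0.56. A change of the size seen in CXCL8 was thus not detectable at this depth in either gene, while the interval of CXCL3 did not reach the 0.48 of IL6. These 3 genes resemble each other in sequence. Of the 50-base windows of the canonical transcripts, 5.33% of CXCL1, 10.1% of CXCL2 and 5.26% of CXCL3 occurred in another of them, and 0% of CXCL8, so their counts are slightly uncertain.

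**Figure D3:**
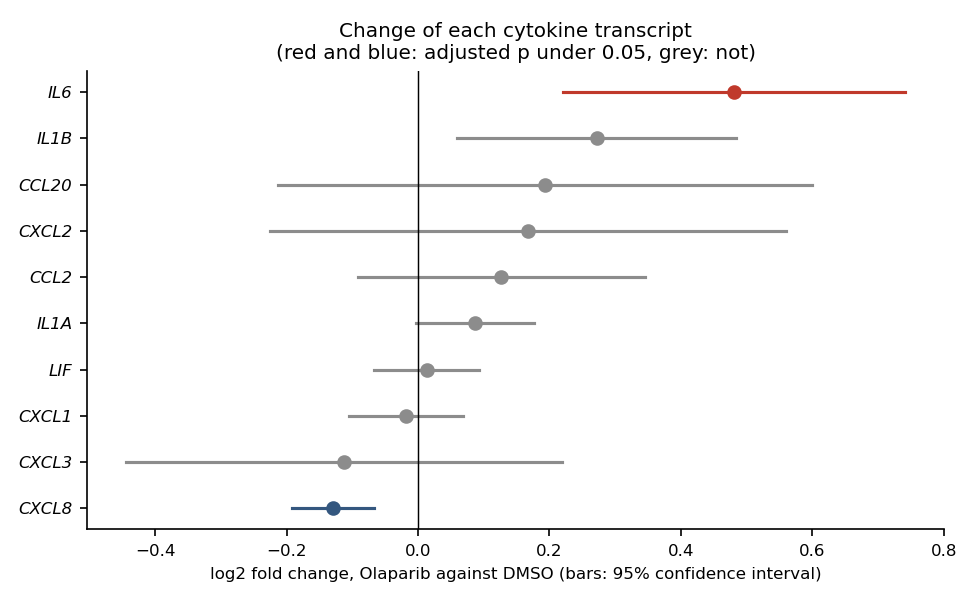
Log2 fold change of each cytokine transcript, Olaparib against DMSO, with 95% confidence intervals from edgeR's fit. IL6 at 0.48 (red) and CXCL8 at -0.13 (blue) had an adjusted p under 0.05. The intervals of CXCL1 and LIF are narrow around 0, and those of CXCL2, CXCL3 and CCL20 are wide.

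IL1A and IL1B encode the 2 agonists of the receptor IL1R1, and IL1RN encodes its secreted antagonist. IL1B (ENSG00000125538, chromosome 2, 112829751 to 112836816) had 163, 158 and 195 normalized counts with Olaparib and 137, 145 and 145 after DMSO. The groups did not overlap, but the Olaparib samples were more spread, and without Olaparib replicate 3 the log2 fold change went from 0.27 to 0.17. Its adjusted p was 0.173 with all samples (unadjusted p = 0.0136, edgeR test), so the difference did not pass the threshold. IL1A (ENSG00000115008, chromosome 2, 112773925 to 112784493) had 1452, 1397 and 1446 normalized counts with Olaparib and 1385, 1296 and 1364 after DMSO. The groups were separate by a narrow margin, with a log2 change of 0.09 (95% confidence interval -0.0026 to 0.18, edgeR adjusted p = 0.359). IL1RN had 55.7, 63.6 and 46.7 normalized counts with Olaparib and 34.5, 32.4 and 44.6 after DMSO, giving a log2 difference of 0.57 (edgeR adjusted p = 0.0907) that did not pass the threshold. IL1B counts relative to IL1RN overlapped between the groups (319% ± 87.4 after Olaparib and 390% ± 61.7 after DMSO, exact permutation test, two-sided, p = 0.3).

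CCL2 (ENSG00000108691, chromosome 17, 34255274 to 34257208) had 172, 151 and 140.2 normalized counts with Olaparib and 148, 142 and 134 after DMSO. The groups overlapped and the log2 fold change was 0.13 (95% confidence interval -0.09 to 0.35, edgeR adjusted p = 0.648), which went to 0.0434 without Olaparib replicate 1 and up to 0.1906 without Olaparib replicate 3. CCL20 (ENSG00000115009, chromosome 2, 227805739 to 227817564) was the least counted of the list, with 36.4, 31.8 and 43.7 normalized counts with Olaparib and 34.5, 31.4 and 32.2 after DMSO. Its log2 fold change was 0.19 (95% confidence interval -0.21 to 0.60, edgeR adjusted p = 0.728), and 0.0611 without Olaparib replicate 3 or 0.296 without Olaparib replicate 2. At this depth neither gene showed a difference beyond the replicate spread.

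IL6 and CXCL8 thus moved in opposite directions. Relative to CXCL8, IL6 counts were 1.43%, 1.23% and 1.22% after Olaparib and 0.762%, 0.911% and 0.872% after DMSO. Every Olaparib sample was above every DMSO sample, a difference of 0.61 in the mean log2 ratio. This ratio was formed after both changes were known, so the separation is no further test.

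**Figure D4:**
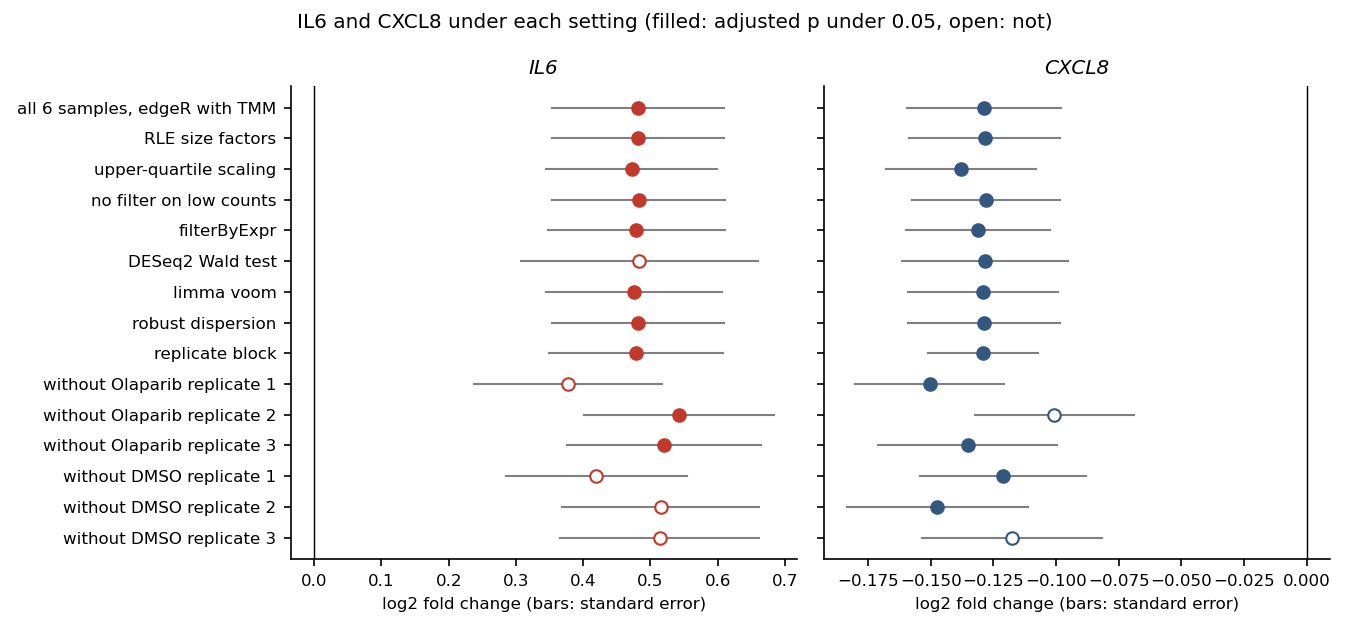
Log2 fold changes of IL6 (left) and CXCL8 (right) with standard errors under each test, scaling, filter and left-out sample. Filled points had an adjusted p under 0.05. The direction was the same under all 15 settings shown, IL6 lost the call under 5 and CXCL8 under 2.

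CXCL8, CXCL1, CXCL3 and CXCL2 lie within 359 kb of chromosome 4, and the neighbouring genes were examined over a span from 73240519 to 74599196. The table held 18 protein-coding genes there, of which 13 were tested. Besides CXCL8, CXCL5 was the only gene of the span with an adjusted p under 0.05. CXCL5 (chromosome 4, 73995642 to 73998677), another neutrophil chemokine that acts on CXCR2, lies between CXCL1 and CXCL3. It had 764, 699.5 and 668 normalized counts with Olaparib and 616, 559.9 and 592 after DMSO, so that all Olaparib samples were above all DMSO samples. Its log2 fold change was 0.27 (SE 0.055, edgeR adjusted p = 0.00229), and it kept an adjusted p of at most 0.0435 with any sample left out. CXCL5 thus rose while CXCL8 fell, and CXCL5 counts were 7.82% ± 0.452 of those of CXCL8 after Olaparib and 5.93% ± 0.193 after DMSO. This ratio was formed after both changes were known, and its groups had to separate because those of both genes did. The chemokines CXCL6 and PF4V1 had 10 and 4 counts in total, and PF4 had 0. The EGFR ligands EREG and AREG, downstream in the span, had log2 fold changes of 0.17 (adjusted p = 0.762) and -0.22 (adjusted p = 0.510) in the edgeR test. The other tested genes of the span did not pass the threshold either, with log2 fold changes of 0.05 for ANKRD17, 0.70 for ALB, -0.29 for AFP, 0.28 for RASSF6, -0.72 for PPBP (11 counts in total) and -0.10 for MTHFD2L.

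Among 45 other cytokines and chemokines, 27 had enough counts to be tested. Of these 27, 3 rose and 0 fell after Olaparib, against 2.15% and 1.21% of all genes tested. The median log2 fold change of the 27 was 0.0638, with 16 above 0 and 11 below, against -0.00422 over all genes tested. It was 0.0295 without DMSO replicate 1. The 3 genes were CXCL5, CX3CL1 and CXCL16. CX3CL1, a membrane-bound chemokine, had 366, 386 and 429 normalized counts with Olaparib and 305, 330.5 and 342 after DMSO (log2 fold change 0.27, edgeR adjusted p = 0.0217, and 0.215 without Olaparib replicate 3). Its call was also lost without DMSO replicate 1 (0.133), without DMSO replicate 2 (0.0791) and with DESeq2 (adjusted p = 0.0948). CXCL16, also membrane-bound, rose from 4029 ± 28.7 to 4499 ± 111 normalized counts (log2 fold change 0.16, edgeR adjusted p = 0.0043), a change that did not reach the fold threshold of 1.2. IL18, the most counted of this list, had a log2 fold change of 0.09 (edgeR adjusted p = 0.160). TNF, a classical inducer of the listed cytokines, had 329.6 ± 9.30 normalized counts after DMSO and 339 ± 18.2 after Olaparib (edgeR adjusted p = 0.864), and its groups overlapped. At 0 counts in every sample were CCL5, CCL7, CCL8, CCL11, CCL13, IL24 and IL33, and 2 symbols (CCL3 and CCL4) were not matched.

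Of 30 receptors and signal transducers, 25 were tested, and 1 rose and 0 fell, against 2.15% and 1.21% of all genes tested. The median log2 fold change of the 25 was 0.0815, or 0.0433 without Olaparib replicate 2, against -0.00422 over all genes tested. The gene of this list that rose was SOCS3, a STAT3-induced inhibitor of gp130 signaling. It had 296, 289 and 298 normalized counts with Olaparib and 209, 235 and 249 after DMSO, with all Olaparib samples above all DMSO samples. Its log2 fold change was 0.35 (SE 0.079, edgeR adjusted p = 0.00777, and 0.0541 without DMSO replicate 1). The receptor chain IL6ST had 2440.3 ± 174 normalized counts with Olaparib and 2476 ± 161 after DMSO (unadjusted p = 0.673 in edgeR), and LIFR 61.9 ± 7.55 and 56.5 ± 12.2. IL6R, the chain that binds IL6, had 313 ± 5.50 and 271 ± 25.8 (log2 fold change 0.21, edgeR adjusted p = 0.135). The signaling receptors of the listed chemokines were close to or at 0, with 1 count in total for CXCR1, 1 for CXCR2, 1 for CCR2 and 0 for CCR6. The decoy receptor gene ACKR2, whose product binds CC chemokines, had 22 to 39 counts per sample and a log2 fold change of -0.07 (edgeR adjusted p = 0.927). IL1R1 had 139 ± 10.3 normalized counts with Olaparib and 123 ± 3.93 after DMSO, and its decoy IL1R2 had 300.5 ± 24.6 and 299.9 ± 4.66, neither past the threshold (adjusted p = 0.510 and 0.989 in edgeR). The most counted genes of this list, the kinase gene IRAK1 and the protease gene CAPN1, had log2 fold changes of 0.08 (adjusted p = 0.114) and 0.01 (adjusted p = 0.942). The IRAK1 value passed the threshold without Olaparib replicate 1 (adjusted p = 0.0144, same edgeR test). It also passed without a filter on low counts (adjusted p = 0.0499) and with the replicate number as a block (adjusted p = 0.00949) in edgeR.

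All 30 genes of the list of transcriptional and mRNA-decay regulators were tested. Of these 30, 5 rose and 1 fell, against 2.15% and 1.21% of all genes tested. The median log2 fold change of the 30 was 0.0411, against -0.00422 over all genes tested. All genes tested include many with low counts. With edgeR's stricter filter on low counts, 734 of 16491 genes and 6 of the 30 were called. This list and the lists of other cytokines and of receptors were chosen with earlier results of these data known. Their shares and medians beside those of all genes are therefore a description. The genes of this list that rose were DUSP1, BIRC3, RELB, TNFAIP3 and JUN. DUSP1, a phosphatase that switches off the kinases p38 and JNK, had 1341, 1279 and 1234 normalized counts with Olaparib and 1054, 1069.8 and 1054 after DMSO (log2 fold change 0.28, edgeR adjusted p = 0.000152). RELB encodes an NF-kB subunit, TNFAIP3 (A20) and BIRC3 encode NF-kB-induced regulators of its upstream signaling, and JUN encodes an AP-1 subunit. Their log2 fold changes were 0.22 (adjusted p = 0.00735), 0.21 (adjusted p = 0.00196), 0.23 (adjusted p = 0.00854) and 0.13 (adjusted p = 0.0176) in edgeR. None of these changes reached the fold threshold of 1.2. The other NF-kB and AP-1 subunit genes of the list were not called. RELA had a log2 fold change of 0.10, REL 0.09, NFKB1 -0.05, NFKB2 0.01, FOS 0.09 and FOSL1 -0.02. The NF-kB regulator genes NFKBIA, NFKBIZ and BCL3 were not called either. Their log2 fold changes were 0.04 (adjusted p = 0.733), 0.14 (adjusted p = 0.152) and 0.01 (adjusted p = 0.972) in edgeR. Calls were lost for RELB without DMSO replicate 1 or 3 (adjusted p up to 0.0580), for TNFAIP3 without DMSO replicate 3 (0.0537), for BIRC3 without Olaparib replicate 1 or DMSO replicate 2 or 3 (up to 0.0967) and for JUN without Olaparib replicate 2 or any DMSO sample (up to 0.121). EGR1, an early growth response factor, fell from 203 ± 9.48 to 97.0 ± 17.9 normalized counts (log2 fold change -1.07, edgeR adjusted p = 1.16e-07). The 2 genes of the list with the most counts were the decay factors ZFP36L1 and HNRNPD. Their log2 fold changes were -0.08 (adjusted p = 0.113) and -0.07 (adjusted p = 0.227, and 0.0441 without Olaparib replicate 1) in edgeR. Without DMSO replicate 3, 2 genes of the list were called in place of 6.

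**Figure D5:**
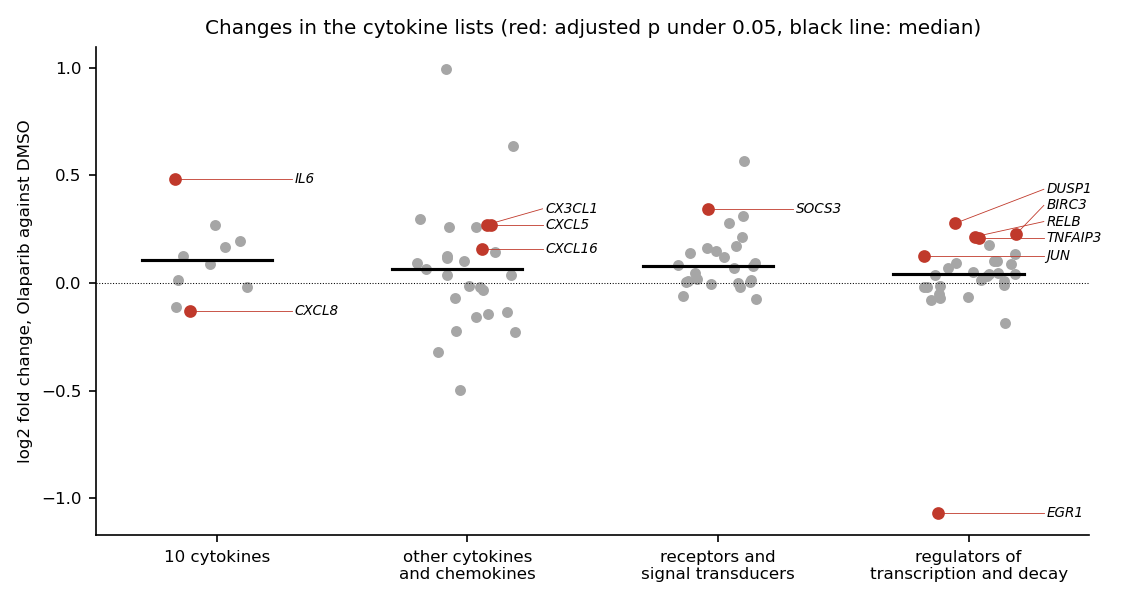
Log2 fold change, Olaparib against DMSO, of each tested gene in the list of 10 cytokines, the list of other cytokines and chemokines (27 tested), the receptors and signal transducers (25 tested) and the regulators (30 tested). Genes with an adjusted p under 0.05 are red and named, and black lines are medians, which lie at 0.107, 0.0638, 0.0815 and 0.0411.

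The genes whose log2 normalized counts followed IL6 most closely over the 6 samples were RINT1 (Pearson's r = 0.998), UBASH3B (0.996) and EMG1 (0.994). They were ranked out of 13120 genes averaging 50 counts or more. Those that followed CXCL8 most closely were ZFAND1 (0.998), HDAC2 (0.996) and SYBU (0.995). These coefficients are a description over 6 samples. Of the ranked genes, 341 had a coefficient above 0.9 with IL6 and 341 with CXCL8, and the reason for these numbers was not tested. None of the 6 genes named here had an adjusted p under 0.05 for Olaparib against DMSO (0.0777 to 0.539 in the edgeR test).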

How the data were processed

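Gene expression was profiled by RNA-seq of poly(A) RNA from UWB1.289 cells with Olaparib or DMSO (3 samples each). The authors deposited raw read counts per gene, which they made with Trimmomatic, STAR on GRCh38, Picard and featureCounts according to the paper and the labels. Whether duplicates were removed and the strand setting are not given in the sources used here. Samples were grouped by their titles. The members and the gene lists were chosen with earlier results of these data known.

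The 21729 genes whose summed count exceeded 10, a filter named in the methods of the study, were scaled by TMM (factors 0.995 to 1.01) and tested with the quasi-likelihood F test of edgeR 4.0.16 (R 4.3.3), adjusted after Benjamini and Hochberg. The methods of the study name DESeq2 without naming its test, and a figure legend names limma, so both are alternatives here. Calls were made at an adjusted p under 0.05. DESeq2 1.42.0, limma voom (3.58.1), other scalings and filters, a fold threshold of 1.2 (after the results text of the study, whose methods state a different one), a replicate block and leaving out each sample were the alternatives. The script was tested on simulated data. Normalized counts are for a library of 37430446 counts. Replicates of a condition differed by more than sampling noise (chi-square per degree of freedom 1.81 to 4.11 over 15525 genes), so all were kept. In both groups replicate 1 differed most from the other replicates. Its pairs had 3.8 and 3.35 after Olaparib and 4.02 and 4.11 after DMSO. Replicates 2 and 3 had 2.28 after Olaparib and 1.81 after DMSO. The paper calls the replicates independent. Names and lengths came from GENCODE release 44, which held 96.0% of the tested identifiers. TPM leave out genes without a length. Named were all 10 members, the called genes (at most 6 by size) and the 2 most counted of each other list, the tested protein-coding genes within 500 kb of the chromosome 4 members, and the 3 genes most correlated with IL6 and CXCL8. The other receptors, the NF-kB and AP-1 subunit genes that were not called, TNF, IL1RN and the genes without counts were added after their values were seen. NFKBIA, NFKBIZ and BCL3 were also added in this way.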

Additional observations from a re-analysis of the deposited data

How the results depend on the processing

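Over 15 alternatives for each of the 10 cytokines, 139 of 150 log2 fold changes kept their direction and their side of the threshold, 8 lost the call (5 for IL6, 3 for CXCL8) and 3 turned direction in genes that were not called. These were CXCL1, at 0.0091 without Olaparib replicate 3 and 0.0064 without DMSO replicate 1, and CXCL2, at -0.0316 without Olaparib replicate 1. With each sample left out CXCL1 ranged from -0.0599 to 0.0091 and CXCL2 from -0.0316 to 0.2676. CAPN1 turned to -0.0006 with upper-quartile scaling, -0.0164 without Olaparib replicate 2 and -0.0137 without DMSO replicate 1, and ranged from -0.0164 to 0.0295 with each sample left out. The number of cytokines called was 2 with all samples, 1 with DESeq2's Wald test, 1 with the 1.2-fold threshold (IL6) and 0 to 2 with each sample left out, with 0 without DMSO replicate 3 (3 at an unadjusted p under 0.05 in the same edgeR test, against 13.3% of all genes). For the other cytokines and chemokines it was 3, against 5 without a filter on low counts, 2 with DESeq2 (without CX3CL1), 2 with the 1.2-fold threshold (without CXCL16) and 2 to 4 with a sample left out. For receptors and signal transducers it was 1, against 2 without the filter and 1 to 2 with a sample left out. For the regulators it was 6, against 2 with the 1.2-fold threshold and 2 to 7 with a sample left out. The causes of these differences were not tested. Over all genes, 730 were called, 398 to 870 with a sample left out and 262 with the 1.2-fold threshold.

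With the replicate number as a block, 1322 genes were called, 2 cytokines, 7 other cytokines and chemokines, 3 receptors and signal transducers and 9 regulators. IL18, IRAK1, ZFP36L1 and HNRNPD were among those called with the block and not without it. Same-numbered samples did not consistently deviate together, with correlations of their deviations from the group means of -0.121, 0.199 and -0.192 over 13121 genes. These few correlations cannot show whether the samples were paired, and the methods of the study name no pairing. Low counts limit CXCL2, CXCL3 and CCL20, whose samples held 31 to 61 counts.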

Other observations

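Interferon-induced chemokines of the CXCR3 family had higher counts after Olaparib, although neither passed the threshold. CXCL10 had 47.6, 44.1 and 45.7 normalized counts in the Olaparib samples and 34.5, 24.5 and 29.4 after DMSO, giving a log2 difference of 0.64 (SE 0.195, edgeR adjusted p = 0.0642). CXCL11 had 17.2, 21.5 and 16.9 after Olaparib and 10.5, 9.81 and 7.58 after DMSO, giving a log2 difference of 0.99 (SE 0.322, edgeR adjusted p = 0.0888). In both genes all 3 Olaparib samples lay above all 3 DMSO samples, as in 10% of all genes tested. CXCL9, the remaining chemokine of that family, had too few counts to be tested. They were singled out with their values in view.

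ZFP36 (tristetraprolin), which binds AU-rich elements of cytokine mRNAs and speeds their decay, had 513, 490.3 and 469 normalized counts in the Olaparib samples and 527, 586 and 558 after DMSO (log2 fold change -0.18, edgeR adjusted p = 0.0688, which did not pass the threshold). All 3 Olaparib samples were below all 3 DMSO samples, as in 9.29% of all genes tested. ZFP36 was named after its values were seen.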
